A study of Mus musculus with 5 samples.

Results

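TAM 1 is 1 of 14 cell classes that the authors named in the live CD45+ immune infiltrate of CT26 tumours, and its members are the cells that carry this name in their deposited annotation. It held 447 of the 8987 annotated CT26 cells, or 4.97% (exact Clopper-Pearson 95% interval 4.53 to 5.44). It was 8.63% (7.88 to 9.43) of the 5180 cells in the 3 monocyte and 3 TAM classes, and 17.7% of the 2519 TAM cells. CT26 is a colon carcinoma line of BALB/c origin. The tumours grew under the skin of BALB/c mice for 12 days, with the treatment label left blank by a dash and the word vehicle in the library name, whose meaning is not stated, and made up 1 single-cell library. The other CT26 classes described here are TAM 2 (1113 cells), TAM 3 (959), Monocyte 1 (602), Monocyte 2 (821) and Monocyte 3 (1238), with the dendritic cell class cDC2 (477) as a further point of reference. Later values come from 3 libraries of 5555 melanoma tumours taken from C57BL/6 mice on day 4, labelled Ptgs+/+, Ptgs-/- and Ptgs-/- NK cell-depleted (the Ptgs genotype is that of the tumour), the last also treated with an NK1.1 antibody and an Asialo GM-1 antibody. The number of tumours behind each library is not stated.

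TAM stands for tumour-associated macrophage. Such cells arise largely from Ly6C-high monocytes that enter the tumour through the chemokine receptor CCR2 and then change their programme, some towards complement production, lipid handling and clearance of dead cells, others towards antigen presentation on MHC class II. Monocytes can also take on features of dendritic cells, and the lectins Mgl2 and Cd209a are among the genes shared by such cells and cDC2.

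The deposited values were log2(CPM + 1), where CPM is a gene's UMIs (counted RNA molecules) per 1000000 UMIs of the cell. All levels below are mean CPM over the cells of a class. A fold is the log2 ratio of mean CPM + 5 in TAM 1 over that in another class, or over the mean of the 5 other monocyte and TAM class means, and a gene is called higher or lower past 1.5-fold. All classes come from 1 library and were named by the authors from the same cells, so these are descriptions with no test, and intervals cover counting error only. TAM 1 cells were deep, with a median of 8551 UMIs per cell, next to 7771 in TAM 2, 4380 in TAM 3 and 3267 to 3803 in the monocyte classes. No annotated CT26 cell exceeded 12489 UMIs or 4.99% mitochondrial counts. Of the CT26 barcodes, 23 also occurred in the 5555 matrix, 1 of them in TAM 1.

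Against the mean of the other 5 classes, 581 of 6937 genes compared were higher in TAM 1 (8.38%) and 798 were lower (11.5%). When log2 values were averaged over cells first, in place of the ratio of means, 1418 were higher and 704 lower after a shift of 0.54 in the median of all genes was taken off, so higher genes made up 66.8% of the calls and not 42.1%. Past 1.5-fold against every other class in turn, 225 genes were higher and 131 lower. For these counts the number of genes compared is not given, and the filter on detection differed. The higher side asked for a UMI in at least 10% of TAM 1 cells. The lower side asked for a UMI in at least 10% of the cells of each of the other 5 classes. The sizes of these counts are therefore not set against each other. Taken against 1 class at a time, the shares of genes called higher and lower were 6.56% and 11.4% against TAM 2, 8.11% and 11.1% against TAM 3, 16.7% and 9.24% against Monocyte 1, 17.2% and 17.9% against Monocyte 2, and 11.2% and 9.19% against Monocyte 3.

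The TAM label was checked against markers. Over all genes compared, 11.5% were called lower than the mean of the other classes and 8.38% higher. Of 10 macrophage markers, 9 were lower than the mean of the other classes, 1 was within 1.5-fold and none was higher, with a median log2 fold of -2.92. Their summed level was 1063 CPM in TAM 1, against 5168 to 11124 CPM in the other 5 monocyte and TAM classes and 885 CPM in cDC2. Csf1r, the receptor for the growth factor of macrophages, stood at 228 CPM in TAM 1 (80.1% of cells with a UMI) and at 297 to 387 CPM in the other 5. Cd68, a lysosomal glycoprotein, was seen in 83.2% of cells. Adgre1, which encodes F4/80, stood at 80.3 CPM in 41.4% of cells. C1qa, a subunit of the complement starter C1q, was at 42.1 CPM with a UMI in 11.0% of TAM 1 cells, and Ms4a7, a membrane protein of mature macrophages, was seen in 6.71%. In T cells, which should lack both, the shares were 2.22% and 2.48% at a lower median depth of 1706 UMIs. Against Monocyte 1 alone the markers were divided, with 4 of 10 higher, 4 lower and a median log2 fold of 0.016, and Apoe made up 3556 of the 5168 CPM of that class. TAM 1 is used here as the authors' name only.

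Monocyte markers gave a mixed picture. The chemokine receptor gene Ccr2 was present in 98.2% of TAM 1 cells at 944 CPM, within the 870 to 1344 CPM of the other classes. Ly6c2, the surface antigen of classical monocytes, was at 69.2 CPM in TAM 1 and at 987 to 2876 CPM in the other 5, and of the 8 monocyte markers 6 were lower and 2 within 1.5-fold. Of 8 conventional dendritic cell markers only Cd209a and Dpp4 reached 5% of cells on either side. Cd209a, a C-type lectin, stood at 146 CPM in TAM 1, at 1.92 to 27.3 CPM in the other 5 classes and at 749 CPM in cDC2. Flt3, the receptor that defines committed dendritic cells, was seen in 1 TAM 1 cell. It was sparse in cDC2 too, at 21.2 CPM in 10.1% of cells, so its near absence says little. The summed T cell markers were at 31.3 CPM in TAM 1, inside the 18.1 to 133 CPM range of the other classes, and the 4 B cell markers at 0.877 CPM.

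The genes highest in TAM 1 encoded secreted effectors, lectins and surface receptors. Lyz1, which encodes lysozyme P, stood at 4151 CPM in TAM 1, 414 in TAM 2, 257 in TAM 3, 52.7 in Monocyte 1, 57.4 in Monocyte 2 and 113 in Monocyte 3, a log2 fold of 4.50 over their mean. Its near-identical neighbour Lyz2, the general macrophage lysozyme, was abundant everywhere (13065 CPM in TAM 1, log2 fold -0.31), and how reads were divided between this pair is not given in the sources used here. Retnla, the secreted protein RELM-alpha that interleukin 4 and 13 induce, was at 4311 CPM against 563 in TAM 2, 431 in TAM 3 and 33.6 to 126 in the monocytes. To set depth aside, each cell was thinned, that is 2000 of its UMIs were drawn at random. Then 55.9% (51.2 to 60.6) of TAM 1 cells held a Lyz1 UMI and 56.4% (51.6 to 61.03) a Retnla UMI, against 10.2% (6.80 to 14.6) of the 254 T cells deep enough, a cell type that should lack both. Before thinning, the median depth was 8551 UMIs in TAM 1 and 1706 in T cells, and the shares of cells with a Lyz1 UMI were 63.3% and 9.91%.

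Mgl2, a galactose-binding lectin also called CD301b, was at 664 CPM in TAM 1 and at 5.66 to 72.6 CPM in the other 5 classes, while cDC2 held 1060 CPM. The UMI ratio of TAM 1 over TAM 2, the next class in order, was 8.33 (exact conditional binomial 95% interval 7.69 to 9.04). Ear2, a ribonuclease of the eosinophil-associated family, was at 348 CPM against 3.00 to 35.7 CPM. Its family members are close in sequence, so its level is uncertain to that extent. Fcrls, an Fc receptor-like scavenger gene, was seen in 70.5% of TAM 1 cells and in at most 20.7% of any of the other 5 classes.

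The remaining 10 of the 15 highest genes covered several roles. Aldh1a2, which makes retinoic acid, was at 77.1 CPM against 0.761 to 4.26 CPM. Fgfr1, a fibroblast growth factor receptor, was at 107 CPM against at most 16.6 CPM. Cd226, an activating receptor better known on lymphocytes, was at 98.9 CPM against 1.08 to 12.9 CPM. The calcium channel gene Cacna1a, the elastase gene Mmp12, the lectin gene Clec4b1, the glycoprotein gene Cd24a, the fusion protein gene Dcstamp, the tetraspanin gene Cd81 and the plexin-domain gene Plxdc2 had log2 folds of 2.96 to 3.45. The median TAM 1 cell held UMIs of 8 of these 15 genes. After thinning, 51.5% (46.7 to 56.2) of TAM 1 cells held at least 5, against 2.79% in TAM 2. In the class moDC it was 9.82% of the 112 cells deep enough, out of 427. The genes were chosen as highest in these same cells, so a higher share in TAM 1 follows from the choice. Lyz1 and Mgl2 were among the 4 highest genes against each of the 5 classes taken alone.

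**Figure D1:**
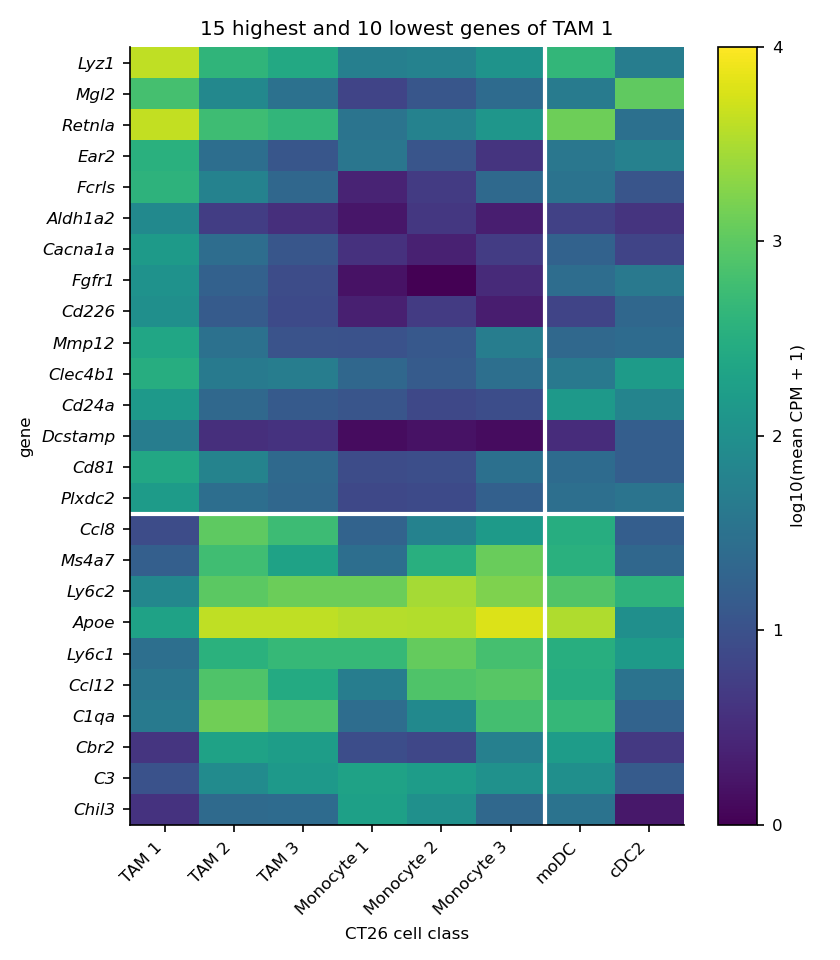
Mean level of the 15 genes highest (above the white line) and the 10 genes lowest in TAM 1, as log10(mean CPM + 1), in the 6 monocyte and TAM classes and, right of the vertical line, in moDC and cDC2. Lyz1 (4151 CPM) and Retnla (4311 CPM) are bright in TAM 1 and at most 563 CPM in the other 5 classes, Mgl2 is brighter in cDC2 (1060 CPM), and Apoe is dark in TAM 1 and cDC2.

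Because Lyz1 and Retnla on one side and Mgl2 on the other went to different cells within the class (described further on), the 250 bases before the start sites of these 3 genes are shown, 5′ to 3′ on the coding strand, from RefSeq on GRCm38.p6. Of the 15 highest genes, 9 had an entry. Capitals mark matches on either strand to a STAT-type motif (TTC and GAA with any 4 bases between), a C/EBP-type motif (TTGCNNAA) or a PU.1-type motif (GAGGAAGT).
Retnla, chr16:48842359-48842608, plus strand: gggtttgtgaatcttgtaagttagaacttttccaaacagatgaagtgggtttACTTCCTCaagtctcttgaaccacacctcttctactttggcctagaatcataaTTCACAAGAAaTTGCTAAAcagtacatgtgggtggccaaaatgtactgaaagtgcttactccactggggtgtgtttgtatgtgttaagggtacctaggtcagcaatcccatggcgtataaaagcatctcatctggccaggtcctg
Lyz1, chr10:117292869-117293118, minus strand: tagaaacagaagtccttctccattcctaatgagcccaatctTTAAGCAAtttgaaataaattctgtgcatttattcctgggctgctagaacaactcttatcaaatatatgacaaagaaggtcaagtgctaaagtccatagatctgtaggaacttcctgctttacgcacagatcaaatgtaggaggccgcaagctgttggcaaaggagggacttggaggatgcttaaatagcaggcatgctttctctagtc
Mgl2, chr11:70130107-70130356, plus strand: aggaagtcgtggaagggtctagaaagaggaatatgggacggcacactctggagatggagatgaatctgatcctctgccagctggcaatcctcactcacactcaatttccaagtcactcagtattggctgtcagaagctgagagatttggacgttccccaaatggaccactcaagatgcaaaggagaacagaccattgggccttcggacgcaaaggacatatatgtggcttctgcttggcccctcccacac
The Retnla window held a STAT-type match that began 145 bases before the start site, a C/EBP-type match that began 134 bases before it, and a PU.1-type match at 198 bases. Among all 32851 windows of this length, 5.85% held a STAT-type, 9.56% a C/EBP-type and 2.44% a PU.1-type match. The Lyz1 window held a C/EBP-type match at 209 bases and the Mgl2 window none of the motifs searched. Among the 9 genes C/EBP-type matches were in 4 (Lyz1, Retnla, Ear2 and Mmp12) and PU.1-type matches in Retnla and Mmp12. Ear2 and Mmp12 were higher in the cells with Mgl2 alone than in those with Lyz1 alone (439 against 289 CPM and 279 against 144 CPM). Mmp12 was at 434 CPM in the cells with both. A link between the matches and the split was not tested. A composite ETS and IRF motif (GGAA and GAAA with any 2 bases between), found in 2.30% of windows, was in none of the 9. The capitals mark letters only, not bound sites, and no match overlapped another in these windows.

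The genes lowest in TAM 1 included lipid, complement, chemokine and monocyte surface genes. Apoe, the lipid carrier apolipoprotein E, was at 202 CPM in TAM 1 and at 3480 to 6232 CPM in the other 5, and its share of all UMIs was 19.4 times (18.1 to 20.8) as high in TAM 2. Its share of cells with a UMI was 33.8% in TAM 1, 86.7% to 92.1% in the other 5 classes and 16.0% in T cells. At the thinned depth 17.9% (14.45 to 21.8) of TAM 1 cells and 14.6% (10.5 to 19.5) of T cells held Apoe, so the share in TAM 1 was within counting error of that in a cell type that should lack it. Ccl8, a monocyte-attracting chemokine, was at 1004 CPM in TAM 2, 557 in TAM 3 and 7.39 in TAM 1, with Monocyte 1 at 17.9 CPM. Ms4a7, Ly6c2, Ly6c1, Ccl12, C1qa, the carbonyl reductase gene Cbr2, C3 and the chitinase-like gene Chil3 completed the 10 lowest, with log2 folds of -4.58 to -3.29. Ly6c1 and Ly6c2 are close copies, and how their reads were divided is not given. C1qa was not low against every class, with 25.9 CPM in Monocyte 1 next to 42.1 CPM in TAM 1.

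MHC class II genes were high and class I genes were not. All 8 MHC class II genes that passed the 5% filter (9 were listed) were higher than the mean of the other classes, with a median log2 fold of 1.34 against a median of -0.03 over all genes. Of all genes compared, 8.38% were called higher. H2-Ab1, a chain of the class II molecule, was at 4140 CPM in TAM 1, 3553 in TAM 3, 1638 in TAM 2 and 367 to 1224 in the monocytes. The list median was 1.29 over TAM 2, but 0.24 over TAM 3, where 3 of 8 were higher and 5 within 1.5-fold. Those 3 included the peptide-loading subunits H2-DMb1 (785 CPM against 398 CPM in TAM 3) and H2-DMb2 (331 against 111). Per cell, class II genes took a median of 2.23% of UMIs in TAM 1, 1.76% in TAM 3, 0.509% in TAM 2 and 4.03% in cDC2. Of 12 MHC class I genes, 4 were lower and 8 within 1.5-fold, and 11 were lower against Monocyte 2. Among co-stimulatory genes Tnfsf9 (4-1BB ligand) was higher at 31.4 CPM, while Cd40 was lower at 15.4 CPM against 24.5 to 144 CPM.

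Mean levels of cell cycle genes were near those of TAM 2. Of 12, 10 were higher than the mean of the other classes (8.38% of all genes compared were) and 2 within 1.5-fold, with a median log2 fold of 1.26. Against TAM 2 alone the median was 0.33, with 1 higher and 11 within. Mki67, a proliferation marker, was at 76.0 CPM in TAM 1, 56.2 in TAM 2 and 6.82 to 14.97 in the other 4 classes. It was seen in 14.8% of TAM 1 cells. The median TAM 1 cell gave 0.0470% of its UMIs to these genes, below TAM 2 (0.0535%) and Monocyte 3 (0.0523%), while the 90th percentile was 0.156% in TAM 1, 0.124% in TAM 2 and 0.115% in Monocyte 3. Glycolysis and hypoxia genes were higher in 8 of 12 and lower in none, with a median log2 fold of 0.83. Against Monocyte 3 the median was 0.46, with 3 higher and 9 within 1.5-fold. Pfkp, a phosphofructokinase, was at 365 CPM against 98.2 to 203 CPM. Of 14 oxidative phosphorylation genes, all were within 1.5-fold.

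**Figure D2:**
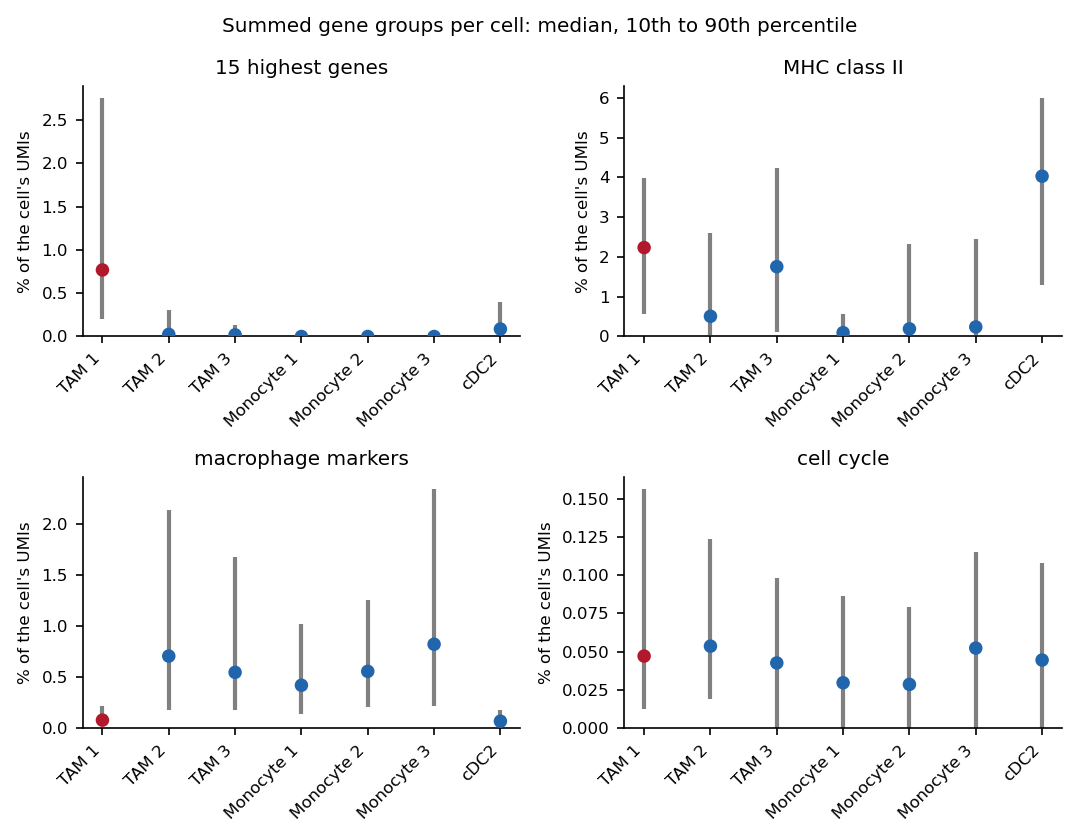
Share of each cell's UMIs taken by the 15 highest genes, MHC class II genes, macrophage markers and cell cycle genes. Points are medians over the cells of a class (TAM 1 in red), and lines run from the 10th to the 90th percentile. The 15 highest genes, chosen on these same cells, take a median of 0.768% in TAM 1 and at most 0.0245% in the other monocyte and TAM classes. Class II genes overlap widely between TAM 1 and TAM 3, and macrophage markers are low in TAM 1 and cDC2.

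Complement and chemokine genes were divided. Of 11 complement genes 8 were lower and 3 higher (against 11.5% and 8.38% of all genes compared), with a median log2 fold of -1.22. The lower ones included all 3 C1q subunits and C3, and the higher ones were C4b (138 CPM against 5.15 to 72.2), properdin (Cfp, 763 CPM against 232 to 588) and the complement receptor subunit Itgam (749 CPM against 451 to 600). Against Monocyte 1, which is itself low in C1q, the list median was 0.73. Monocyte-attracting chemokines were lower in 6 of 9 and higher in 3, with a median of -1.14. Ccl2, Ccl7, Ccl8, Ccl12, Ccl3 and Ccl4 were lower and Ccl6, Ccl9 and Ccl24 higher. Ccl24 is an eotaxin gene that the list includes. None of the 9 was higher than in TAM 3, where Ccl6 was at 4502 CPM (TAM 1 4607), Ccl9 at 2086 (2145) and Ccl24 at 334 (418). Without the TAM 1 cells that held Lyz1 after thinning, the log2 fold of Ccl24 was -1.01. Of 9 factors that attract or support T and NK cells, 8 were lower and 1 higher. Cxcl9 was at 86.7 CPM and Cxcl10 at 233 CPM, and Monocyte 1 was lower still in both (45.2 and 211 CPM). The higher one, Ccl17, was at 40.9 CPM against 0.718 to 7.15 CPM, in 7.38% of TAM 1 cells, and is named after its value was seen.

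Type I interferon genes were low, most of all beside Monocyte 2. All 14 type I interferon genes were lower than the mean of the other classes, with a median log2 fold of -1.31, where 11.5% of all genes compared were called lower. Without Monocyte 2 in the comparison the median was -0.69. Ifit2, an antiviral RNA-binding protein, was at 84.9 CPM in TAM 1 and at 1420 CPM in Monocyte 2, yet at 62.5 CPM in Monocyte 1. The median was -2.79 against Monocyte 2, -0.97 against TAM 2, -0.39 against TAM 3 and -0.24 against Monocyte 1, where 4 genes were higher and 3 lower. Of 14 interferon-gamma response genes 11 were lower than the mean, with a median of -0.81. Against Monocyte 1 that list was at 0.37, with 6 higher and none lower, and against Monocyte 3 at 0.15, with 4 higher and 1 lower. Toll-like receptor genes were lower in 7 of 10 and higher in none.

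Genes of alternative activation pointed both ways. Of 11, 4 were higher, 5 lower and 2 within 1.5-fold, where 8.38% of all genes compared were called higher and 11.5% lower. Retnla, Mgl2 and Fn1 (fibronectin, 2986 CPM against 396 to 863) had log2 folds of 4.13, 4.32 and 2.12, and Chil3, Folr2 and Msr1 of -3.29, -1.90 and -1.66. The mannose receptor gene Mrc1 was at 660 CPM, below TAM 2 (743) and TAM 3 (748) and above the monocytes (85.3 to 356). Arg1, arginase 1, was at 217 CPM in 14.1% of cells, with Monocyte 3 at 435 CPM. Lipid genes were also divided: Lpl, lipoprotein lipase, was at 759 CPM against 21.2 to 276 CPM, and 6 of the 14 genes used were lower, Apoe among them. Of 12 genes of resident-like macrophages 10 were lower, none was higher and the median log2 fold was -1.93.

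Of 17 macrophage transcription factors 3 were higher, 6 lower and 8 within 1.5-fold, with a median log2 fold of -0.24. Over all genes compared, 8.38% were called higher and 11.5% lower, so the 3 higher ones are few beside that share. Irf4 (58.5 CPM against 2.06 to 15.05), Batf3 (109 against 10.6 to 31.4) and Bhlhe40 (143 against 26.9 to 53.0) were higher. Irf4 and Batf3 are best known for roles in dendritic cells and lymphocytes. Maf, a transcription factor of mature macrophages, stood at 134 CPM in TAM 1 and at 275 to 632 CPM in the other classes. Irf8, Nr1h3, Tfec and Cebpb were lower too, with log2 folds of -1.71 to -0.90. Spi1, the gene for PU.1, was within 1.5-fold at 342 CPM. Eicosanoid genes included Alox5 (58.3 CPM against 1.68 to 14.0), which starts leukotriene synthesis, and Ptgs1, the cyclooxygenase 1 gene (39.99 CPM against 2.69 to 13.4). Ptgs2, the cyclooxygenase 2 gene, was within 1.5-fold at 171 CPM, and the prostaglandin E2 receptor gene Ptger4 was at 17.3 CPM against 20.2 to 35.2 CPM. Il6 was at 59.9 CPM, against 1.53 to 10.7 CPM. The shared receptor chain Csf2rb for GM-CSF, interleukin 3 and interleukin 5 was at 330 CPM against 96.6 to 232 CPM. Cd200r1, an inhibitory receptor, was at 231 CPM against 40.1 to 79.2 CPM, and Cd274 (PD-L1) was within 1.5-fold. The metallothionein genes Mt1 (666 CPM against 69.6 to 243) and Mt2 were higher.

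**Figure D3:**
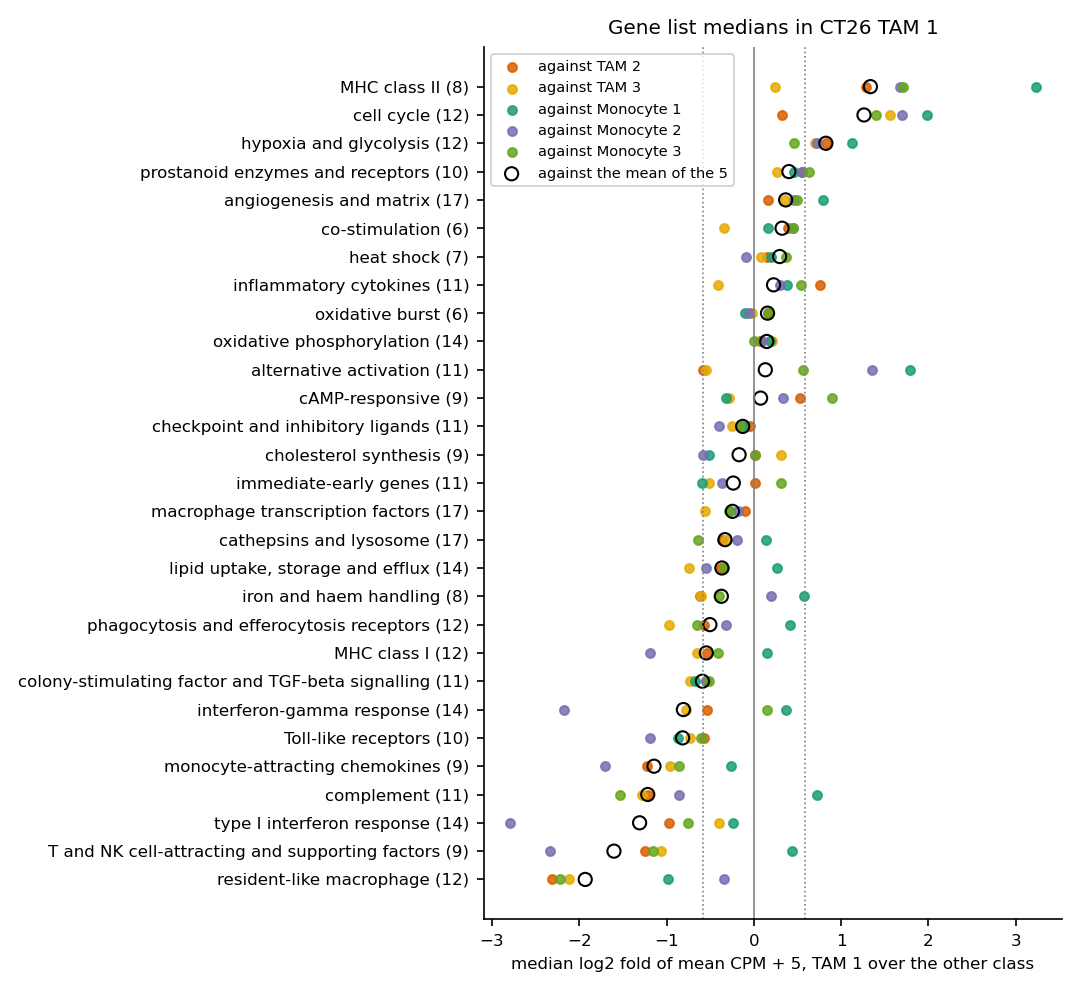
Median log2 fold of each gene list (genes used in brackets, lists with at least 5) in TAM 1 against each of the other 5 classes (coloured points) and against their mean (open circles), and dotted lines at 1.5-fold. MHC class II lies to the right of 0 against all 5 classes, resident-like macrophage genes lie to the left against all 5, and type I interferon genes spread from -2.79 (Monocyte 2) to -0.24 (Monocyte 1).

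TAM 1 cells were not alike. After thinning every cell to 2000 UMIs, the variance of Retnla over its mean was 22.8, that of Lyz1 17.2 and that of Mgl2 4.79, where sampling alone would give 1. The median TAM 1 cell held 1 Retnla UMI and the 90th percentile 30. Lyz1 and Retnla tended to occur in the same cells (Spearman rho 0.53 over 447 cells), and Mgl2 in others (rho -0.49 with Lyz1 and -0.38 with Retnla). All pairs share the cells, the library and the fixed depth, and the median rho over all 105 pairs of the 15 highest genes was 0.05. At this depth 201 cells held Lyz1 without Mgl2, 125 held Mgl2 without Lyz1, 49 held both and 72 neither. In the other 5 classes the rho of Lyz1 with Mgl2 was between -0.03 and 0.09. Where both genes are rare, rho cannot go far below 0. Monocyte 1 held 54 cells with Lyz1 alone, 7 with Mgl2 alone and 0 with both, and Monocyte 2 held 42, 13 and 0. In TAM 2 the counts were 151, 63 and 21. Whether the split is particular to TAM 1 was not tested. Lyz1 and Retnla went together in some other classes, with a rho of 0.34 in TAM 2 and 0.54 over the 112 of 427 moDC cells with at least 2000 UMIs. Their rho was 0.14 in TAM 3, -0.06 in Monocyte 1, 0.004 in Monocyte 2, 0.07 in Monocyte 3 and 0.01 in cDC2. At the same depth 10.2% of T cells held Lyz1 and 1.18% Mgl2, and the part of free RNA in the split was not tested.

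**Figure D4:**
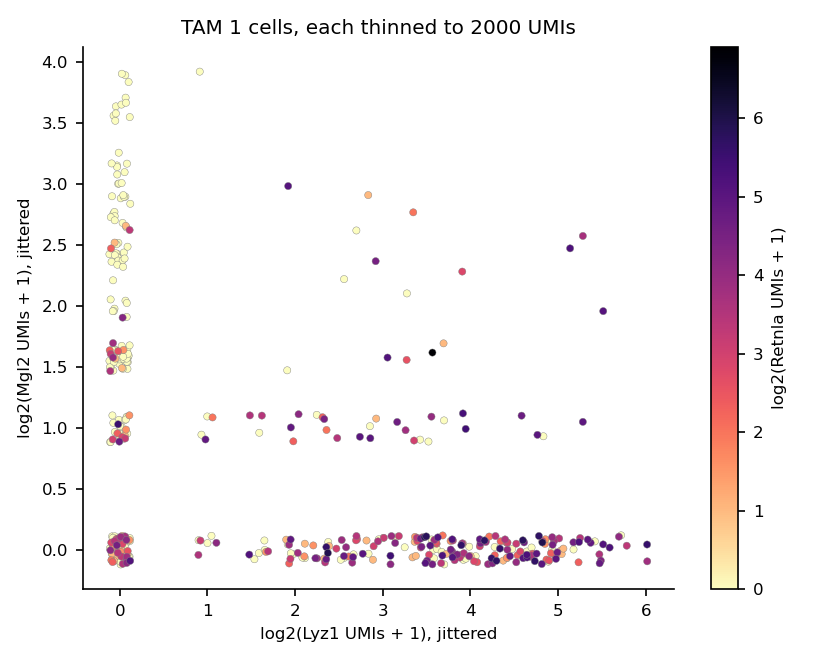
UMIs of Lyz1 and Mgl2 in each of the 447 TAM 1 cells after thinning to 2000 UMIs, on log2(UMIs + 1) axes with jitter, coloured by Retnla UMIs. Cells lie along both axes, with 49 cells holding both genes, and dark cells (high Retnla) lie mainly along the Lyz1 axis.

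The same split ran through other genes. It was defined on these cells after seeing them, so it is given as a description, and genes outside the fixed lists were chosen for their difference. Between the 201 and the 125 cells, 11.1% of 6895 genes were called higher in the Lyz1 cells and 10.3% higher in the Mgl2 cells, and median depths were 7914 and 8941 UMIs. Retnla was at 6660 CPM in the Lyz1 cells and 806 CPM in the Mgl2 cells. Fn1 (4278 against 1441 CPM), the eotaxin gene Ccl24 (738 against 48.5), C4b (219 against 8.16), Arg1 (388 against 42.4), the platelet factor gene Pf4 (392 against 40.3), Ptgs1 (71.6 against 5.14) and the cathepsin gene Ctsl (828 against 105) were also on the Lyz1 side. Ctsl was also at 673 CPM in the cells with neither Lyz1 nor Mgl2. On the Mgl2 side stood Cd209a (419 against 5.09 CPM), its paralogue Cd209d (206 against 2.50), Ccl17 (125 against 3.41) and the decoy receptor gene Il1r2 (97.4 against 5.22).

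Class II genes were higher in the Mgl2 cells for 7 of 8, with H2-Ab1 at 6119 against 2970 CPM. Cell cycle genes were higher there for 12 of 12, with Mki67 at 154 against 17.8 CPM and Top2a at 151 against 22.9 CPM. This was not particular to cells with Mgl2. In the 72 cells with neither gene Mki67 was at 145 and Top2a at 144 CPM, and in the 49 with both at 14.3 and 31.2 CPM. Complement genes were higher in the Lyz1 cells for 8 of 11. Among the 15 highest genes, Aldh1a2 (108 against 31.1 CPM), Cacna1a (194 against 88.0) and Cd81 (332 against 127) were higher in the Lyz1 cells, as was Retnla. Ear2 and Mmp12 were higher in the Mgl2 cells. Fcrls (411 and 327 CPM), Fgfr1 (112 and 90.4), Cd226 (103 and 91.5), Cd24a (130 and 123), Plxdc2 (149 and 176), Clec4b1 and Dcstamp were within 1.5-fold between both kinds of cell. So were Ccr2 (912 and 970.3 CPM) and Mrc1 (648 and 654). Apoe was low in both, at 185 and 155 CPM.

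The same genes were then read in the 5555 tumours. Line, mouse strain, day and library all differ, so values are set side by side only, and each 5555 group is 1 library. In them 8 classes were read, and 54 of 11872 cells with no annotation or a shared barcode were left out. Most of the 15 highest genes of CT26 TAM 1 were highest in the class annotated Mono Mac, and not in the one annotated TAM 1. Mono Mac held 57, 243 and 270 cells in the Ptgs+/+, Ptgs-/- and NK cell-depleted libraries. Of the 15 genes, 10 were highest in Mono Mac in all 3 libraries and none was highest in 5555 TAM 1 in all 3. The share of all genes that are highest in Mono Mac was not counted, so these counts have no background beside them. Retnla in Mono Mac was at 1809, 6472 and 7474 CPM, and in 5555 TAM 1 at 1.36, 66.4 and 78.6 CPM. Lyz1 in Mono Mac was at 1514, 707 and 1234 CPM, and in 5555 TAM 1 at 4.35, 15.7 and 34.4 CPM. Ear2 (423, 905 and 889 CPM in Mono Mac), Fcrls (180.1, 417 and 503), Aldh1a2 (33.8, 68.9 and 79.7), Fgfr1, Cd226, Clec4b1, Cd81 and Plxdc2 followed. Mono Mac was also the deepest of the 8 classes in each library, with medians of 9462 to 11248 UMIs, as TAM 1 was among the 6 CT26 classes, and the part of depth in these levels was not tested.

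The other 5 genes did not follow. Mgl2 was highest in Mono Mac in the Ptgs+/+ library (415 CPM) but in cDC2 in the other libraries (851 and 645 CPM, with Mono Mac at 304 and 287). Mmp12 was highest in 5555 TAM 3 throughout (1681, 1744 and 4182 CPM). Cacna1a was at most 3.86 CPM in any class. Cd24a and Dcstamp were highest in cDC2 in the Ptgs+/+ library and in Mono Mac in the others. At 2000 UMIs per cell, at least 5 of the 15 genes were found in 22.8% (12.7 to 35.8), 40.3% (34.1 to 46.8) and 51.9% (45.7 to 57.9) of Mono Mac cells. In 5555 TAM 1 they were found in 0 of 609 cells, which allows a share of up to 0.493% at a limit of 3 cells (exact upper bound 0.604%), and in 0.858% and 1.24% of cells in the Ptgs-/- libraries. In the shallow class TAM 4 only 76 of 319 and 91 of 296 cells in those libraries reached 2000 UMIs. Of these deeper cells 22.4% and 18.7% held at least 5 of the genes. Over all TAM 4 cells Retnla stood at 2052 and 1365 CPM.

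Most genes low in CT26 TAM 1 were also low in Mono Mac. Of the 10, 6, 8 and 8 were lowest or next to lowest there among the 8 classes, in the same order of libraries. The share of all genes that rank so low in Mono Mac was not counted either. Apoe was at 593, 77.4 and 80.8 CPM in Mono Mac and at 3391, 5606 and 4028 CPM in 5555 TAM 1. Ms4a7 was at 17.6, 9.32 and 4.84 CPM against 809, 909 and 640 CPM. C1qa was an exception, at 570, 289 and 427 CPM in Mono Mac, where it ranked 3, 6 and 5 from the top of the 8 classes. Ly6c1 was at most 2.15 CPM in any 5555 class, with Mono Mac tied with other classes at 0 in the Ptgs+/+ and NK cell-depleted libraries, and was counted as low in none of the 3. The 10 macrophage markers summed to 3392, 1744 and 1957 CPM in Mono Mac and to 8496, 12545 and 9878 CPM in 5555 TAM 1. They were not lowest there throughout: TAM 2 (2561), Monocytes 2 (2221) and cDC2 (1313) were below Mono Mac in the Ptgs+/+ library, and cDC2 (1347) in the NK cell-depleted one. The rho of Lyz1 with Mgl2 in Mono Mac was 0.06, -0.07 and -0.17 over 57, 243 and 270 cells.

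**Figure D5:**
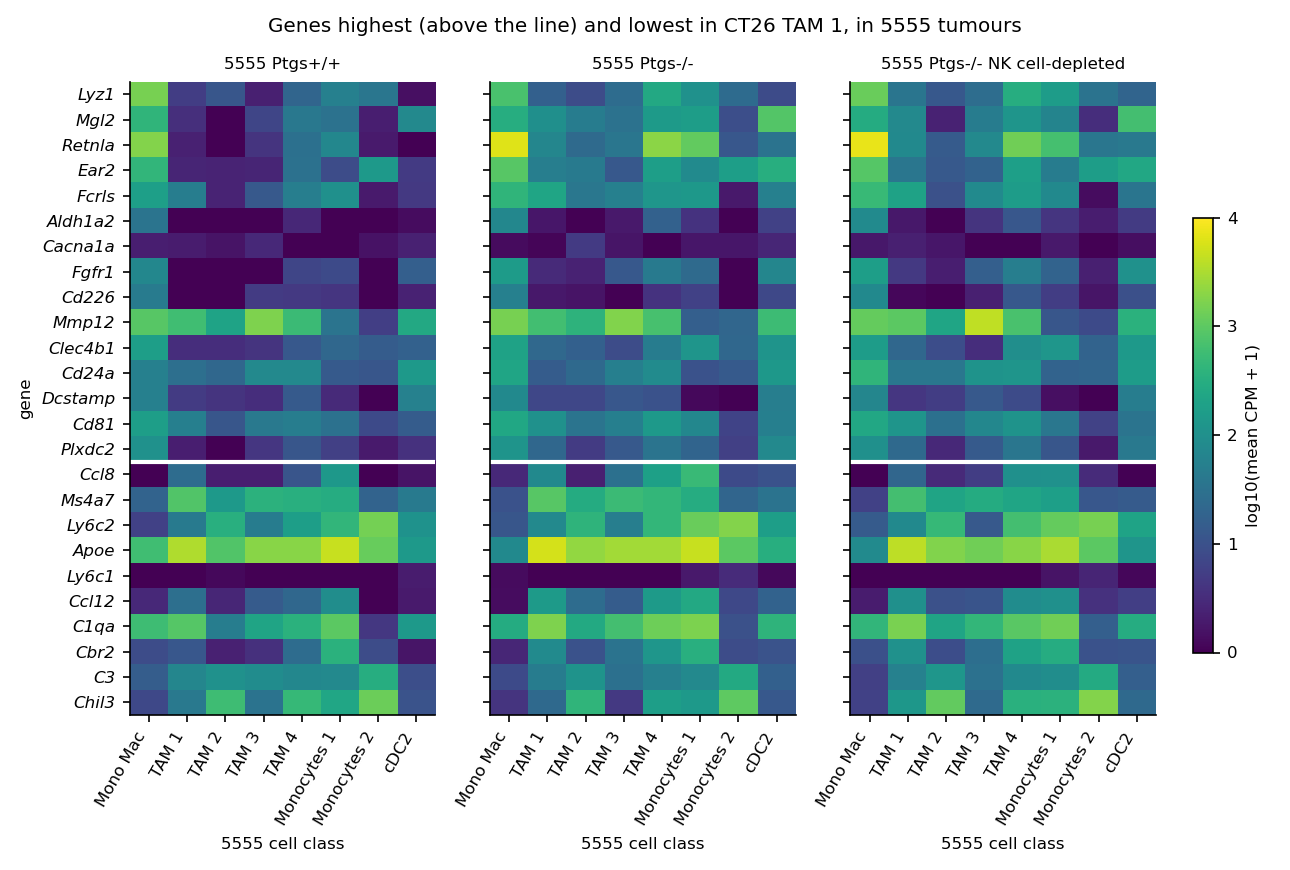
Mean level, as log10(mean CPM + 1), of the genes highest (above the white line) and lowest in CT26 TAM 1, in 8 classes of each 5555 library. The Mono Mac column at the left of each panel is brightest for 10 of the 15 upper genes in all 3 libraries, while Apoe and Ms4a7 are dark there and bright in the column of 5555 TAM 1.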

How the data were processed

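Live CD45+ cells of CT26 tumours (at least 98% pure after sorting) were run as 1 10x Genomics 3′ v3 library, per the labels' protocols. Cell Ranger 3.0.2, Partek and the build mm10 appear in the submitters' processing notes. Filters, clustering and doublet removal are not given in the sources used here. The unit of the deposited log2 values was read from the values themselves. Each cell's 2^value - 1 summed to 1000000 to within 0.0023%, so the authors' values are log2(CPM + 1). UMIs were recovered by dividing by each cell's most common value, and 99.9% came out whole (within 0.1 UMI, or 0.01% of large counts). For 18 symbols with fractional UMIs no interval was made. The deposited 5555 log2 values were treated likewise.

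Classes were the authors' annotation, joined by cell name. Levels are mean CPM. Genes compared had a UMI in at least 10% of the cells of a side (5% for list members), folds used a pseudocount of 5 CPM and were centred only where the median of all genes moved by over 0.1, which was so against Monocyte 2 (0.18). Named genes were the 15 highest and 10 lowest, the 4 highest and lowest against each class, the 2 to 4 list members with the largest folds, and a fixed set, without receptor segments, haemoglobin, mitochondrial, ribosomal and unnamed genes. Lyz2, Ccl17, Folr2, Bhlhe40, Spi1, Irf8, Tfec, Cebpb, Flt3, Ctsl, Pf4, Cd209d, Il1r2, C4b, Cfp, Itgam, Ccl3, Ccl4, Ccl6, Ccl9 and Ccl24 fall outside that rule and were chosen after their values were seen. Thinning drew 2000 UMIs per cell. No doublet caller was run. There are no replicates, so no test was made. The fold script was tested on simulated data. Total depth was 39748514 UMIs in CT26, and the number of cells and UMIs limits precision. The alternatives tried are given in the closing section. The members, lists and comparisons were chosen with earlier results of these data known. Computation used Python 3.11.15, NumPy 2.4.6, SciPy 1.17.1, pandas 2.3.3 and matplotlib 3.10.9.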

Additional observations from a re-analysis of the deposited data

How the results depend on the processing

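No paired analysis was possible because the CT26 classes come from 1 library and no test was made. For the same reason no replicate could be left out. The share of TAM 1, 4.97% of all cells, was 8.63% of monocyte and TAM cells and 5.92% of cells with at least 2000 UMIs. The 581 genes called higher became 360 and the 798 called lower 509 with a pseudocount of 20 CPM, and 345 and 498 where a UMI in 25% of cells was asked for. The larger pseudocount shrinks folds of low genes and the stricter filter compares 4019 genes, by construction. Averaging log2 values over cells called 1418 higher, and thinning to 2000 UMIs called 315 higher among 3529 genes compared. The former also turned the fold of Il1r2 (-0.029). Under the other settings both counts stayed within 1.5 times. Among 38 list medians, the non-classical monocyte list (-0.67) reached 0.000949 when thinned and 0.035 without Monocyte 1. Against TAM 2 and TAM 3 alone, the log2 folds of Mrc1 (-0.17) and Cxcl1 (-0.067) changed sign. Without TAM 2 in the comparison those of Gzma (0.85) and Ncr1 (0.070) did, and the cause was not tested. All 25 of the highest and lowest genes kept their direction under the planned settings, though sizes moved: Ccl8 (-4.87) reached -1.58, Apoe (-4.38) -8.04, Mmp12 (3.17) 1.32 and Dcstamp (3.06) 1.18, all when log2 values were averaged over cells. Over the planned settings 717 values of single genes and 18 list medians moved, by more than their counting error for genes and by 1.5-fold or more for medians, next to 2338 and 663 that did not. In 2 settings added after seeing the data, TAM 1 cells with a thinned Lyz1 or Mgl2 UMI were left out. Without the Lyz1 cells, the folds of Lyz1 (-1.85, by construction), Ptgs1 (-0.26), Ccl24 (-1.01) and Ptger4 (0.082) changed sign, and the other 14 highest genes stayed at 1.964 or above. Without the Mgl2 cells, Il1r2 was at -0.46, Mgl2 at 1.35 and the other 14 at 2.78 or above. Levels near 1 UMI in a few cells are limited by depth.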
